A study of Mus musculus with 16 samples.

Results

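Mouse embryonic stem (ES) cells that had lost Rybp were compared between day 12 and day 4 after treatment with 4-hydroxytamoxifen (OHT). The comparison holds the 8 arrays titled as OHT-treated among the 16 arrays of the series, with 4 arrays at day 12 and 4 at day 4. Each set of 4 has 2 arrays of clone 10 and 2 of clone 15, numbered replicate 1 and replicate 2, and values for single arrays are given below in the order clone 10 replicate 1, clone 10 replicate 2, clone 15 replicate 1, clone 15 replicate 2. Both clones have a 129/B6 hybrid background. OHT was given at 800 nM for 24 hours, and cells so treated are called KO here. Untreated cells of the same clones at both days, 4 arrays each, give the change over the same days without OHT. That change also holds any difference between sets of arrays, described below. No untreated control received OHT, so what OHT itself does and what the loss of Rybp does cannot be told apart. The culture medium held serum and leukaemia inhibitory factor (LIF), per the labels' protocols, with irradiated fibroblast feeders or gelatin as the surface, and no array is assigned to either. Each line is a single clone, the labels name neither the deleted allele nor the recombinase, and whether replicates came from separate cultures is not stated. The p-values therefore measure only how far these arrays spread, and that spread may be technical.

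Rybp is a subunit of variant forms of Polycomb repressive complex 1 (PRC1), in which it binds the Ring1 proteins that place a ubiquitin mark on histone H2A. Polycomb complexes hold developmental and germline genes at low activity in ES cells. ES cells in serum are mixed, and some of them move towards primitive endoderm, the lineage of the early embryo that gives rise to the visceral and parietal endoderm of the yolk sac. Its cells are driven by the transcription factors Gata6, Gata4 and Sox17, carry the receptor Pdgfra, lay down a basement membrane, and take up and secrete nutrients through receptors such as cubilin and megalin.

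The targeted transcript was low in KO cells at day 4 and at day 12. The dimmer of the Rybp probe sets, both of which also carry the symbol of a pseudogene, read 88.5, 91.0, 84.9 and 125 on the KO arrays of day 4 and 143, 109, 249 and 256 on those of day 12, against means of 2753 and 3029 in untreated cells. The 2 arrays of clone 15 at day 12 were the highest KO arrays. The change within KO cells was 0.88 ± 0.24 on the log2 scale (SE) and did not pass (limma adjusted p = 0.0713). Leaving out single KO arrays moved that p between 0.0351 and 0.201. The brighter one read 6002 ± 1840.4 at day 4 and 4199 ± 997 at day 12 (SD, n = 4) and did not follow the deletion. In untreated cells it read 2127, 2771, 297 and 255 at day 4 and 1404, 2108, 157 and 170.4 at day 12, so that the clones differed there, with clone 10 above clone 15 on every array. Where either probe set lies relative to the deleted part was not analysed here.

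Between day 4 and day 12, genes of the primitive and visceral endoderm made up most of the largest increases in KO cells. At an adjusted p under 0.05, 408 of 18195 entries tested were higher at day 12 (2.24%) and 187 were lower (1.03%), 595 in all (3.27%). Leaving out single KO arrays gave 175 to 310 higher and 64 to 112 lower genes. The increases were also larger, with 199 of 408 at 2-fold or more against 31 of 187 decreases. Intensities below the 25th percentile of the table (28.3) were also raised to that floor, which gives the floored fold below. By it 21 genes rose at least 8-fold and 0 fell as far. Of these 21, 13 belong to a list of primitive and visceral endoderm genes. The median change was 0.94 among the 408 increases, -0.69 among the 187 decreases and 0.02 over all genes on the log2 scale. All 595 had the same sign within clone 10 and clone 15 and within replicate 1 and replicate 2, and for 576 of them the 4 arrays of one day lay wholly above those of the other. The calls came from these same arrays, so this agreement is not separate evidence of the direction. Over all entries tested the arrays of day 12 lay wholly above those of day 4 for 6.94% and wholly below for 4.49%.

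The same direction prevailed in untreated cells, with fewer calls. There 119 genes were higher (0.654%) and 62 lower (0.341%) at day 12, 181 in all (0.995%). Of the 595 genes called in KO cells, 126 were also called in untreated cells, all 126 with the same sign, which is 21.2% of the KO calls and 69.6% of the 181 untreated calls. By sign alone, 570 of the 595 had a change of the same sign in untreated cells, 389 of the 408 increases and 181 of the 187 decreases. In untreated cells the 408 increases had a median change of 0.55 and the 187 decreases of -0.43. The test of the difference itself, the KO change minus the untreated change, found 0 genes higher and 0 lower (limma, lowest adjusted p = 0.816), with 832 at an unadjusted p under 0.05. This fit does not pair KO with untreated arrays. With the 8 pairs of a KO and an untreated array of the same day, clone and replicate number as a replicate block, 1702 genes had an unadjusted p under 0.05 and 1 was called, Tmlhe, an enzyme of carnitine synthesis (2.37 ± 0.54 in the unpaired fit; limma adjusted p = 0.034 with the block). The adjusted p of differences below come from the unpaired fit. Where a change is larger in KO than in untreated cells below, that is a description. KO and untreated cells have separate arrays at each day.

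**Figure D1:**
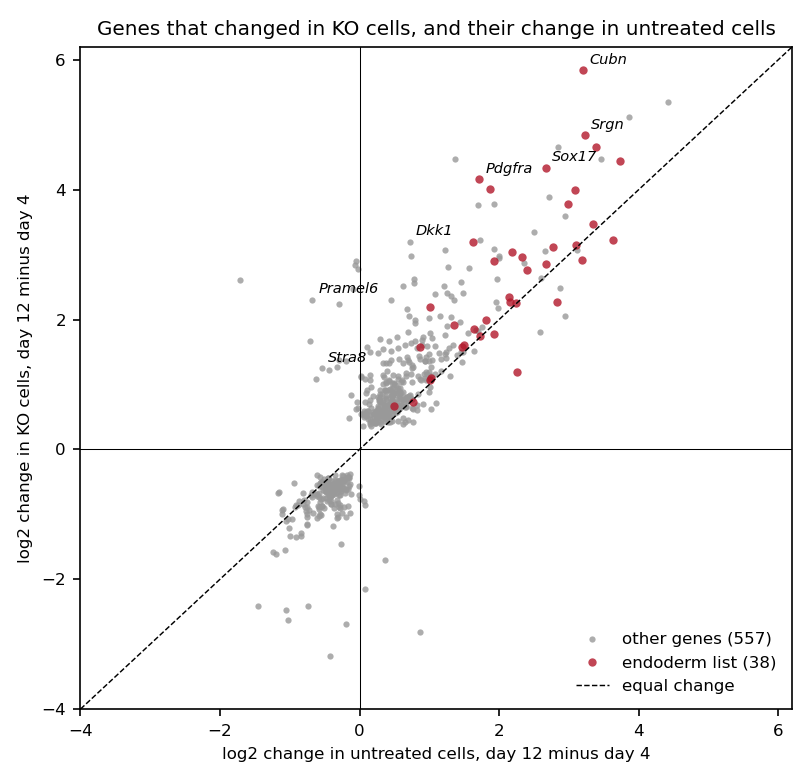
Each point is 1 of the 595 genes that changed in KO cells between day 4 and day 12, with its log2 change in untreated cells on the horizontal axis and in KO cells on the vertical axis. Red points are the 38 endoderm genes, and the dashed line marks equal change. Most points share their sign in both cell populations (570 of 595), while Stra8 and Pramel6 lie left of 0 in untreated cells.

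Arrays of a day and replicate number moved together, which bears on every comparison between days. Within day 4, KO arrays of replicate 2 differed from those of replicate 1 for 893 genes in the higher (4.91%) and 1697 in the lower direction (9.33%), whereas within day 12 this comparison called 0 and 0. With such sets as a random block, 242 of the 595 calls were kept, 188 higher and 54 lower. For list members below that lose their call, the p from that fit or the number that kept it is given. The change itself differed between the replicates for 20 of the 595, and over all entries it was higher in replicate 2 than in replicate 1 for 713 genes (3.92%) and lower for 341 (1.87%). It differed between clone 10 and clone 15 for 0 genes (limma, lowest adjusted p = 0.210), with 507 at an unadjusted p under 0.05. All arrays share 1 set of quantile-normalized values with a median intensity of 93.3. The 8 ES cell markers gave summed intensities of 114386 to 121515 at day 4 and 98792 to 116875 at day 12 in KO cells, and 0 of them passed. Dppa5a, with KO means of 44195 and 43403, made the largest part of these sums, so they say little about dimmer markers. Of 8 feeder fibroblast markers 0 passed. The log2 ratios of 3' over 5' RNA control probe sets, day 12 minus day 4, differed by 0.01 for actin, -0.05 for Gapdh, -0.09 for the transferrin receptor and -0.24 for pyruvate carboxylase, and the arrays of the days overlapped for each.

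The transcription factors of the primitive endoderm rose together. Gata6, which starts the lineage, read 76.0, 93.6, 129.7 and 70.8 at day 4 and 956, 548, 873 and 661 at day 12. Every day 12 array was at least 548, and the highest day 4 array read 129.7. That is a log2 change of 3.04 ± 0.24 (limma adjusted p = 3.7e-05) with a floored fold of 8.25. Sox17, a factor of all endoderm, read 32.8, 20.9, 156 and 26.4 and then 1349, 436, 1021 and 792, a change of 4.34 ± 0.56 (limma adjusted p = 0.00147). Its day 4 values lay below the floor on 2 of 4 arrays, and its floored fold was 18.5. Gata4 rose from 87.7 ± 70.3 to 502 ± 69.8 (SD, n = 4), a change of 2.90 ± 0.48 (limma adjusted p = 0.006, and 0.0605 with the random set block). Foxa2, a forkhead factor of visceral and definitive endoderm, went from 64.2 ± 31.3 to 280.4 ± 83.8 (2.28 ± 0.47, limma adjusted p = 0.0205, and 0.0566 with that block). Sox7, of parietal endoderm, changed by 1.91 ± 0.29 and Cited1, a transcriptional coactivator, by 2.91 ± 0.46 (limma adjusted p = 0.00403 and 0.00471). In untreated cells Gata6 also rose, from 82.9 to 382 (2.19 ± 0.24, limma adjusted p = 0.00101), as did Sox17 (2.67 ± 0.56, 0.0458). The factors Hnf4a and Hhex did not pass, with changes of 0.56 and 0.08. The 5 defining markers, Gata4, Gata6, Sox17, Sox7 and Pdgfra, all passed, and their summed intensity ran from 251 to 574 at day 4 and from 2064 to 3795 at day 12 in KO cells. In untreated cells the sums were 267 to 521 and 1296 to 1771, with 2 of the 5 called. In such bulk samples a larger share of endoderm cells and more RNA per cell cannot be told apart.

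**Figure D2:**
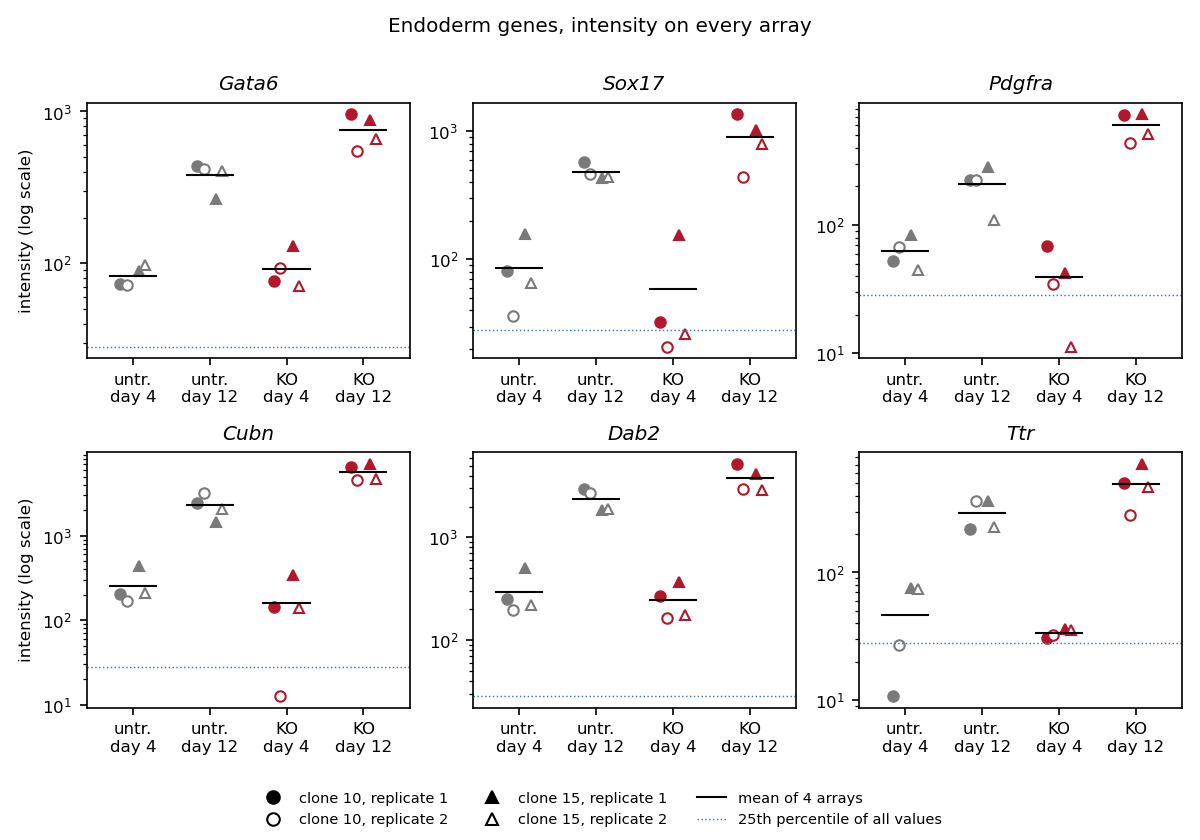
Intensity (log scale) of 6 endoderm genes on every array of the 4 groups, untreated (grey) and KO (red) at day 4 and day 12. Circles are clone 10, triangles clone 15, filled symbols replicate 1, open symbols replicate 2, black bars the mean of 4 arrays and the dotted line the 25th percentile of all values. In every panel the 4 KO arrays of day 12 lie above the 4 of day 4, as with Gata6 at 548 or more against at most 129.7.

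The receptors of the lineage rose as well. Pdgfra, the platelet-derived growth factor receptor that marks primitive endoderm, read 68.9, 34.9, 42.5 and 11.3 at day 4 and 722, 435, 728 and 517 at day 12, with no overlap. Its change was 4.16 ± 0.46 (limma adjusted p = 6.0e-04; floored fold 14.2). Untreated cells went from 62.4 to 211, a change of 1.72 ± 0.46 that did not pass (limma adjusted p = 0.105), and the difference of 2.44 ± 0.65 had an adjusted p of 0.884. Cubn, which encodes cubilin, a receptor for vitamin B12 bound to intrinsic factor, had the largest change of all genes with the floor. It read 143, 12.7, 347 and 138 at day 4 and 6461, 4505, 7066 and 4643 at day 12, a change of 5.85 ± 0.73 (limma adjusted p = 0.00111) and a floored fold of 47.1. Clone 10 replicate 2 at day 4 stood far below the other arrays, and the raw fold of 57.6 rests partly on it. Amn, the partner that carries cubilin to the cell surface, went from 162, 181, 252 and 201 to 1820.3, 1337, 1685 and 1338, and Lrp2, or megalin, from 201, 251, 212 and 299 to 2657, 1915, 1994 and 2272. Their changes were 2.96 ± 0.20 and 3.20 ± 0.23 (both with a limma adjusted p of 1.6e-05), with narrow spread between arrays. Dab2, the adaptor that couples these receptors to clathrin, read 268, 165, 365 and 174 and then 5209, 2955, 4112 and 2911 (4.000 ± 0.35, limma adjusted p = 7.6e-05). Pth1r, a parathyroid hormone receptor of parietal endoderm, rose by 2.35 ± 0.35 (limma adjusted p = 0.00288). In untreated cells Amn, Lrp2, Dab2 and Pth1r were called too, by 2.34, 1.63, 3.09 and 2.14. Fgfr3 and Fgfr4 did not pass in KO cells (0.11 and 0.37).

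Secreted and carrier proteins followed. Ttr, the transthyretin that carries thyroid hormone and retinol, read 30.9, 32.5, 36.0 and 35.7 at day 4 and 505, 282, 708 and 467 at day 12, a change of 3.79 ± 0.44 (limma adjusted p = 7.4e-04; floored fold 13.8). The day 4 values lay just above the floor on every array. Srgn, the core protein of a proteoglycan stored in vesicles, went from 280.4, 242, 461 and 321 to 11489, 5428, 11767 and 9324. Its change of 4.84 ± 0.27 had the lowest adjusted p of the 12 leading increases (limma, 5.0e-06), and the lowest day 12 array, clone 10 replicate 2, still read 5428. Apoa1 went from 44.7 ± 13.3 to 395 ± 148 (3.11 ± 0.48, limma adjusted p = 0.0043) and Apob from 45.5 ± 15.7 to 135 ± 42.3 (1.58 ± 0.33, 0.0239; 0.135 with the random set block). Both are apolipoproteins. Afp, the fetal serum protein, read 7.40, 7.18, 6.68 and 13.9 and then 156, 82.0, 131 and 197, below the floor on all day 4 arrays, so that its change of 4.01 ± 0.89 (limma adjusted p = 0.0302, and 0.167 with the random set block) became a floored fold of 4.76. Rbp4, the retinol carrier, rose by 1.19 ± 0.29 in KO and by 2.25 ± 0.29 in untreated cells (limma adjusted p = 0.0437 and 0.00317). Spink1, a trypsin inhibitor, rose by 2.28 ± 0.24 and 2.82 ± 0.24. Among apolipoproteins that did not pass, Apoe read 11119.5 at day 4 and 13045 at day 12, Apoa2 1609.8 and 1144, and Apom 65.8 and 188.

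Enzymes and surface proteins of the endoderm changed in the same direction. Ctsh, a lysosomal cysteine protease, read 135, 90.8, 241 and 113 at day 4 and 3434, 1531, 5357 and 2635 at day 12 (4.44 ± 0.33, limma adjusted p = 2.6e-05). Untreated cells went from 149 to 1921 (3.74 ± 0.33). Cyp26a1, which breaks down retinoic acid, rose by 3.23 ± 0.60 in KO and by 3.64 ± 0.60 in untreated cells (limma adjusted p = 0.0128 and 0.013; 0.066 in KO with the random set block). S100g, a calcium-binding protein, rose by 4.66 ± 0.77 from values at or below the floor on 3 of 4 arrays, with a floored fold of 7.25 (limma adjusted p = 0.00603, and 0.0666 with that block). Amot, a scaffold at cell junctions, rose by 2.77 ± 0.27 (limma adjusted p = 2.1e-04), Plat, a plasminogen activator, by 1.59 ± 0.28 (0.00882), and Fxyd3, a regulator of the sodium pump, by 2.19 ± 0.42 (0.0144; 0.0582 with the block). Aqp8, a water channel, was called at 1.99 ± 0.42 (limma adjusted p = 0.0237; 0.0752 with the block), although its arrays overlapped because clone 10 replicate 2 at day 12 read 143 against 151 on the highest day 4 array. The epithelial keratins Krt8 and Krt18 rose by 2.26 ± 0.23 and 1.75 ± 0.18 in KO cells and by 2.24 ± 0.23 and 1.72 ± 0.18 in untreated cells (limma adjusted p from 3.4e-04 to 6.7e-04).

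Basement membrane genes rose in KO and in untreated cells. Col4a1 and Col4a2, the collagen chains of basement membranes, read 775 ± 495 and 385 ± 236 at day 4 and 7486 ± 1742 and 3038 ± 660.0 at day 12 (SD, n = 4). Their changes were 3.47 ± 0.47 and 3.15 ± 0.45 in KO cells and 3.34 ± 0.47 and 3.11 ± 0.45 in untreated cells (limma adjusted p from 0.00162 to 0.00573). The laminin chains Lama1, Lamb1 and Lamc1 rose by 2.86 ± 0.39, 1.06 ± 0.17 and 1.61 ± 0.37 (limma adjusted p = 0.00174, 0.0051 and 0.0341; Lamc1 0.0674 with the random set block). Serpinh1, the collagen chaperone, went from 2038, 1650.0, 2238 and 1637 to 6852, 5476, 6988 and 6548 (1.78 ± 0.15), and Sparc, a collagen-binding protein, from 4956, 3301, 6269 and 4131 to 15765, 14781, 19474 and 15979 (1.85 ± 0.22). The collagen hydroxylases P4ha1, P4ha2 and P3h1 rose by 0.73, 1.09 and 0.75, the lysyl oxidase Loxl3 by 0.90 and Nid2 by 0.67. Of these last 5, P4ha2 alone kept its call with the random set block. In all 12 of 42 matrix genes rose (28.6%, against 2.24% of all entries) and 0 fell, with a median of 0.45. The largest changes that did not pass were Col6a1 (0.96, limma adjusted p = 0.0653) and Lamb3 (0.98). In untreated cells 8 of the 42 rose, and Nid1 and Hspg2 did not pass in KO cells (-0.21 and 0.70). Sparc, together with Timp2 (1.45 ± 0.13) and Acta2 (0.81 ± 0.13), was also 1 of 3 of 49 feeder fibroblast genes that rose (6.12%), while Col1a1, Col3a1 and the other defining feeder markers did not pass. Their summed intensity ran from 881 to 2079 at day 4 and from 1458 to 2218 at day 12, and its part in the matrix result was not tested. Over the 49 feeder genes, 15 were higher and 0 lower in 4 of 4 pairs of the same clone and number. No share over all entries is given for such pairs, and the numbers pair no days, so this count cannot be weighed. The list's median change was 0.33 against 0.02 over all genes. It was 0.03 within replicate 1 and 0.69 within replicate 2, where the matrix list had 0.13 and 0.69.

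Over the whole list, 38 of 53 measured endoderm genes rose (71.7%, against 2.24% of all entries) and 0 fell, with a median change of 1.91 against 0.02. For 37 of the 38 the day 12 arrays lay wholly above the day 4 arrays. The arrays of the days were apart for 576 of all 595 called genes, so this is no trait of the list. Of the 15 not called, 12 had a change above 0, and the largest of them were Apom (1.87 ± 0.77) and Stra6 (1.09 ± 0.60). In untreated cells 26 of the 53 rose and 0 fell, with a median of 1.72. The change was larger in KO than in untreated cells for 39 of 53 members, against 49.99% of all entries, and the difference had an unadjusted p under 0.05 for 8 of them and passed for 0. With the random set block 27 of the 53 were called. Leaving out single KO arrays moved the median between 1.81 and 2.27. Many of these genes were known to rise from earlier results of these data, so the count is not independent evidence of the direction. The members also share their arrays and are not independent of each other. The 39 of 53 is therefore a description, and whether the list rose more in KO cells was not tested.

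**Figure D3:**
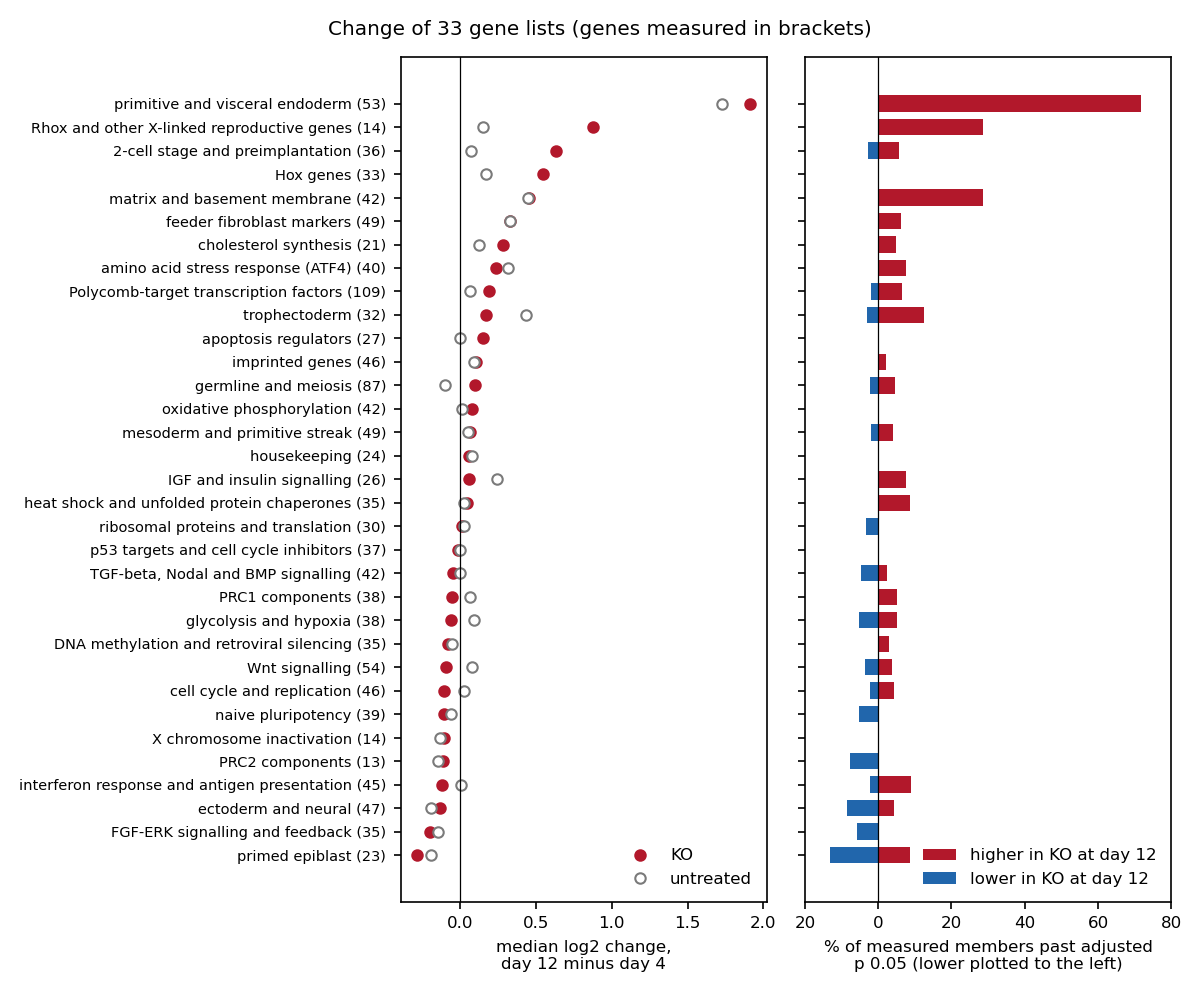
The left panel plots the median log2 change from day 4 to day 12 of each of 33 gene lists in KO (red) and untreated cells (open grey), and the right panel the share of measured members that passed in KO cells, higher to the right and lower to the left. The endoderm list lies apart at a median of 1.91 with 71.7% of members higher, and 12 of 42 matrix genes and 4 of 14 Rhox and X-linked genes make the next largest shares.

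Genes outside the endoderm list were among the 12 leading increases too. Lgals2, which encodes galectin-2, a sugar-binding protein, read 134, 91.5, 142 and 145 at day 4 and 4431, 2081, 4753 and 2351 at day 12 (4.66 ± 0.32, limma adjusted p = 1.6e-05). At day 12 the replicate 1 arrays were higher than the replicate 2 arrays, and all 4 lay far above every day 4 array. Untreated cells went from 124 to 904 (2.84 ± 0.32). Nostrin, which directs nitric oxide synthase traffic, went from 16.8, 7.06, 24.3 and 7.29 to 457, 305, 618 and 357, with all day 4 arrays below the floor and a floored fold of 14.8 (5.12 ± 0.41, limma adjusted p = 3.7e-05). Dram1, a lysosomal membrane protein tied to autophagy, rose by 3.88 ± 0.60 (limma adjusted p = 0.00407). Enpep, an aminopeptidase that cleaves angiotensin, rose from 36.0, 33.2, 47.3 and 6.30 to 1044, 255, 839 and 384 (4.47 ± 0.96, limma adjusted p = 0.0255), and lost its call with the random set block (0.105) and without single arrays (up to 0.0861). Of the 12 leading increases, 11 kept their call under both. Further probe sets of these 12 genes, where the array has them, all rose as well and passed, as with the second sets of Cubn (5.33) and Sox17 (2.70, against 4.34 for the brighter set).

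Promoters of 3 leading increases are shown because these genes moved together with Gata4 and Gata6. RefSeq (build GRCm38.p6) gave 11 promoters for 9 of the 12 genes, and the 250 bases before each start were searched on both strands for AGATAA and TGATAA, letters of the motif that GATA factors bind. The promoter of Cubn, the gene with the largest rise, and those of Dab2 and Lgals2, where a match was found, read 5' to 3' as follows, with matches in capitals.
Cubn, chr2:13491877-13492126, minus strand: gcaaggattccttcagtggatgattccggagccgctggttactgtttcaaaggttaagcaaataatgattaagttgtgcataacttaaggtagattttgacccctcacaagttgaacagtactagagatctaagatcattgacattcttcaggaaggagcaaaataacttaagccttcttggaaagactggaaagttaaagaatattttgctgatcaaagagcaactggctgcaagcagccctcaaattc
Dab2, chr15:6299539-6299788, plus strand: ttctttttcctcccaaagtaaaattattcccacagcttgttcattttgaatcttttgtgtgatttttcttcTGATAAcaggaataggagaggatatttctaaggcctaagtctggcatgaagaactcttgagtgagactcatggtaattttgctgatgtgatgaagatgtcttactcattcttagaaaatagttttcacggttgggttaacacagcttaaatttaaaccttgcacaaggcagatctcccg
Lgals2, chr15:78855530-78855779, minus strand: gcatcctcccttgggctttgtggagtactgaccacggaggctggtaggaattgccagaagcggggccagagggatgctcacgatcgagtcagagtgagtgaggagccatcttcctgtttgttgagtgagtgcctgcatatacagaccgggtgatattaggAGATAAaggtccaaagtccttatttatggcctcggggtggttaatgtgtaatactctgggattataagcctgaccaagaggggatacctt
The match began 179 bases before the start shown for Dab2 and 90 bases before that of Lgals2, and Cubn had none. The other promoter of Dab2 (chr15:6386498-6386747, plus strand), not shown, had none either. Matches lay in 2 of the 11 promoters (18.2%), against 16.6% of all 32851 promoters of that length. Among endoderm genes that rose, 3 of 36 promoters of 27 genes held a match (8.33%). These shares are near or below the background, and the search covers no sequence outside the window.

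Decreases were smaller than increases, and fewer of the leading ones kept their call without single arrays (5 of 12, against 11 of 12 increases). Bnc2, a zinc finger protein, had the largest fall with the floor, from 441, 820.1, 427 and 648 at day 4 to 226, 189, 154 and 178 at day 12 (-1.61 ± 0.21, limma adjusted p = 0.00131). The highest array of day 12 read 226 and the lowest of day 4 read 427. Wnt5a, a ligand of non-canonical Wnt signalling, fell from 186, 159.6, 158 and 116 to 77.6, 79.1, 55.9 and 55.2 (-1.21 ± 0.16, limma adjusted p = 0.00156). Both also fell in untreated cells, with changes of -1.20 ± 0.21 and -1.01 ± 0.16 (limma adjusted p = 0.0149 and 0.00987). Ina, a neurofilament protein, went from 746, 634, 679 and 685 to 274, 364, 288 and 287 (-1.18 ± 0.18, limma adjusted p = 0.00318), and Matn2, a matrix adaptor protein, from 101, 103, 109 and 74.4 to 50.8, 29.4, 38.2 and 26.5 (-1.45 ± 0.24, 0.00673). Neither passed in untreated cells (-0.38 and -0.27), and the differences of -0.80 ± 0.25 and -1.18 ± 0.34 had adjusted p of 0.978 and 0.957. A second, equally dim probe set of Matn2 read a change of 0.39 (limma adjusted p = 0.826 over every probe set). Nnt, a mitochondrial enzyme that makes NADPH, fell from 1499.9 ± 372 to 617 ± 183 (SD, n = 4; -1.29 ± 0.24, limma adjusted p = 0.012), and Krt12, a keratin, from 254 ± 93.3 to 98.6 ± 36.4 (-1.35 ± 0.27, 0.0192). Prune2 fell from 4908, 2036, 4006 and 1999.7 to 1028, 831, 1183 and 1013 (-1.57 ± 0.35, limma adjusted p = 0.0314), where the replicate 1 arrays of day 4 stood well above the replicate 2 arrays.

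**Figure D4:**
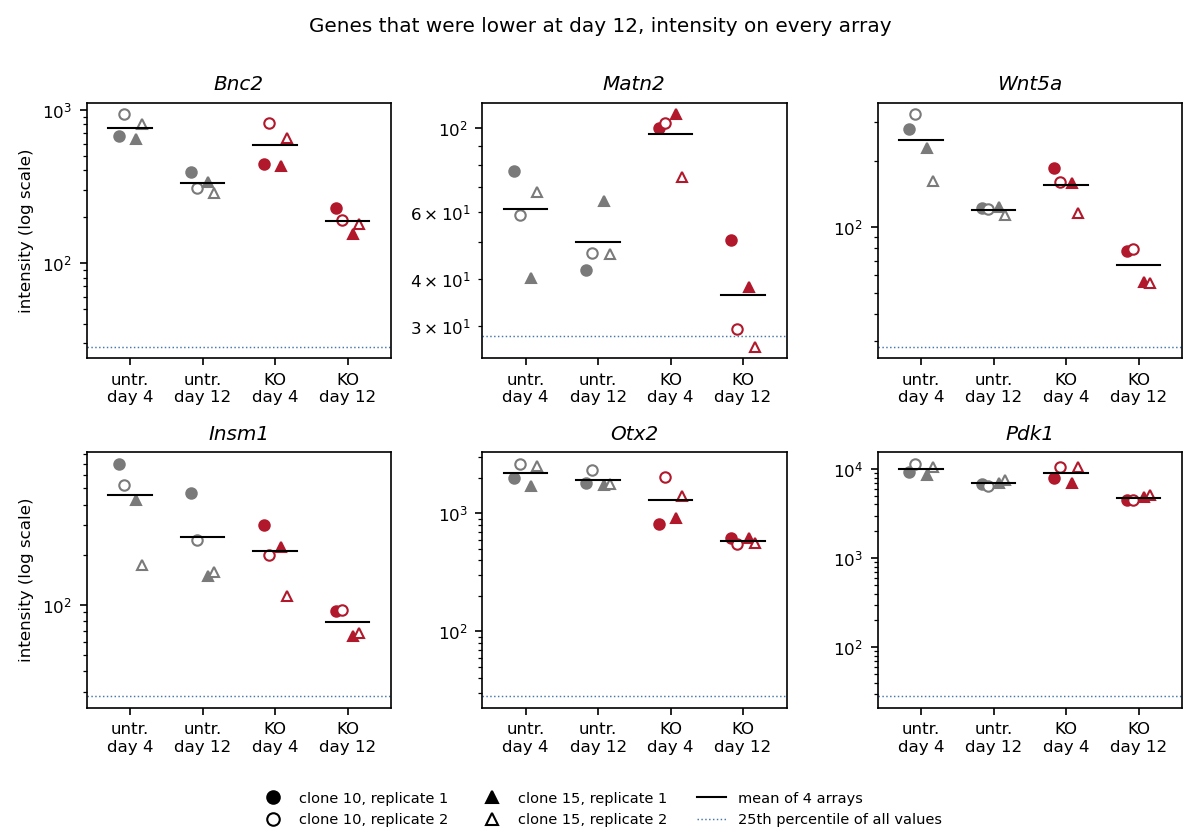
Intensity (log scale) of 6 genes that were lower in KO cells at day 12, on every array of the 4 groups; symbols show clone and replicate number, black bars the mean of 4 arrays and the dotted line the 25th percentile of all values. Bnc2 and Wnt5a are also lower in untreated cells at day 12, while Otx2 keeps a mean of 1914 there against 585 in KO cells.

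The other 5 leading decreases lost their call with the random set block. They were Insm1, a zinc finger factor of neuroendocrine cells (-1.33 ± 0.32, limma adjusted p = 0.0396, and 0.103 with the block), Nexmif, a neurite growth gene (-1.34 ± 0.29, 0.0283 and 0.148), Nup210l, related to a nuclear pore protein (-1.70 ± 0.39, 0.0343 and 0.194), Tafa4, a secreted protein of neurons (-2.41 ± 0.52, 0.0265 and 0.158) and Gm20199 (-1.55 ± 0.35, 0.0333 and 0.0943). For 7 of the 12 leading decreases the adjusted p rose above 0.05 when some single KO array was left out. These were the 5 just named with Prune2 (up to 0.0873) and Krt12 (up to 0.0619).

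Of 39 naive pluripotency genes 0 rose and 2 fell (5.13%, against 1.03% of all entries). The list's median was -0.11 (-0.16 to -0.06 leaving out single KO arrays, -0.19 within replicate 1 and -0.002 within replicate 2). Pou5f1, the core factor Oct4, read 11808, 12040.1, 11642 and 10817 at day 4 and 11019, 10539, 7558 and 9477 at day 12, a change of -0.28 ± 0.12 that did not pass (limma adjusted p = 0.266). Sox2 read 12636 ± 1376 and 10022 ± 1163 (-0.34 ± 0.11, limma adjusted p = 0.128) and Nanog 10103 ± 1113 and 11259 ± 1595 (0.15 ± 0.12, 0.594). The 2 that fell were Gbx2, a homeobox gene (-0.93 ± 0.23, limma adjusted p = 0.0427, and 0.0984 with the random set block), and Socs3, an inhibitor that LIF signalling induces, from 5705, 5634, 4086 and 4732 to 3622, 3294, 3080.4 and 2926 (-0.63 ± 0.10, 0.00586). Socs3 was called in untreated cells as well (-0.48 ± 0.10). Dimmer probe sets of Socs3, with mean intensities of 3005 and 1880, read changes of -0.47 and -0.04. Neither passed (limma adjusted p = 0.192 and 0.962 over every probe set). Lefty2, a Nodal antagonist (-1.005 ± 0.29), and Jam2, an adhesion molecule (0.70 ± 0.20), were the largest changes that did not pass.

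Of 23 genes of the primed epiblast, the state that follows implantation, 3 fell (13%, against 1.03% of all entries) and 2 rose (8.7%, against 2.24%). Their median was -0.28 (-0.41 to -0.11 leaving out single KO arrays, -0.56 within replicate 1 and -0.04 within replicate 2). Otx2, the homeobox factor of that state, read 818, 2023, 908 and 1411 at day 4 and 614, 546, 616 and 564 at day 12 (-1.05 ± 0.25, limma adjusted p = 0.0395, and 0.0731 with the random set block). The day 12 arrays were tight, whereas at day 4 the replicate 2 arrays stood well above the replicate 1 arrays, so that the change was -0.49 within replicate 1 and -1.61 within replicate 2. Untreated cells read 2207 and 1914 (-0.19 ± 0.25), and the difference of -0.85 ± 0.35 did not pass (limma adjusted p = 0.9999). Pou3f1 and Zic5 fell, with changes of -0.96 ± 0.21 and -0.58 ± 0.14 (limma adjusted p = 0.0275 and 0.0371), neither with a call under the random set block (0.0587 and 0.137). The 2 that rose, Dkk1 and Krt18, are also genes of other lists. Lef1 (-1.10 ± 0.59) and Dnmt3a (-0.90 ± 0.24), a de novo DNA methyltransferase, did not pass by their brightest probe sets. Dimmer probe sets of Dnmt3a fell by -1.10, -0.93 and -0.89 and passed (limma adjusted p = 0.0267, 0.0278 and 0.0297 over every probe set). A further one did not (-0.66, 0.178).

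Of 87 germline genes, a group that Polycomb complexes help to silence, 4 rose (4.6%, against 2.24% of all entries) and 2 fell (2.3%, against 1.03%). The median was 0.10 (0.06 to 0.19 leaving out single KO arrays). Stra8, which starts meiosis in response to retinoic acid, read 289.8, 401, 349.9 and 493 at day 4 and 959, 1196, 647 and 885 at day 12 (1.26 ± 0.22, limma adjusted p = 0.0104, and 0.066 with the random set block). In untreated cells it read 156, 185, 231 and 229.9 and then 119, 138, 176 and 119, with overlapping arrays (-0.54 ± 0.22, limma adjusted p = 0.302). The difference of 1.80 ± 0.32 had an unadjusted p of 8.8e-05 and an adjusted p of 0.816. Sohlh2, a factor of early germ cells, rose from 1105 ± 142 to 1715 ± 206 (0.63 ± 0.14, limma adjusted p = 0.0253, and 0.0982 with the block). H1f6, a testis linker histone, was called (2.30 ± 0.40, limma adjusted p = 0.00876), but all its day 4 arrays lay below the floor, its day 12 arrays read at most 56.0, and its floored fold was 1.40. Tktl1, a transketolase-like gene, rose from 54.4 ± 7.97 to 100.4 ± 27.6 (SD, n = 4). The 2 that fell, Prdm1 (-0.71 ± 0.15, limma adjusted p = 0.0239) and Tfap2c (-0.64 ± 0.13, 0.0172), specify primordial germ cells in the embryo. With the random set block 0 of the 6 were called. Tdrd7 (1.71 ± 0.69) and Hormad2 (0.97 ± 0.44) were the largest changes that did not pass. The germ cell markers Dazl, Ddx4 and Sycp3 did not pass.

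Some X-linked reproductive genes rose, Rhox5 and Rhox6 of the Rhox cluster and Nxf7 and Tktl1 outside it. Rhox5, a homeobox gene that DNA methylation silences in many cells, read 10734, 10619, 11547 and 11489 at day 4 and 23776, 21869.6, 20446 and 19432 at day 12. All day 12 arrays were at least 19432 and all day 4 arrays at most 11547, a change of 0.94 ± 0.11 (limma adjusted p = 8.9e-04). Rhox6 rose from 1293, 1123, 1263 and 1149 to 2352, 2366, 2470.2 and 1825 (0.89 ± 0.14, limma adjusted p = 0.0051). In untreated cells Rhox5 went from 7728 to 10652 (0.47 ± 0.11, limma adjusted p = 0.074). Nxf7, of a family of RNA export factors, went from 8.01, 7.73, 52.1 and 26.3 to 208, 247, 288 and 192 (3.76 ± 0.60, limma adjusted p = 0.00529; floored fold 7.01), and Tktl1 is the fourth call. In all 4 of 14 measured genes rose (28.6%, against 2.24% of all entries) and 0 fell. The median was 0.88 in KO and 0.15 in untreated cells, where 0 were called. The KO median was 0.73 to 0.98 leaving out single KO arrays, 1.02 within replicate 1 and 0.40 within replicate 2, and 0.57 with the floor. Rhox9 (0.68 ± 0.24) and Tex13b (0.73 ± 0.65) did not pass.

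Of 36 measured genes of the 2-cell stage and preimplantation embryo, 2 rose (5.56%, against 2.24% of all entries) and 1 fell (2.78%, against 1.03%). Their median was 0.63. That median was 0.49 to 0.88 leaving out single KO arrays, 0.34 within replicate 1 and 0.96 within replicate 2. Pramel6, a Prame-like gene of the early embryo, read 16.1, 9.56, 12.6 and 28.6 at day 4 and 72.8, 54.2, 91.9 and 92.0 at day 12 (2.31 ± 0.56, limma adjusted p = 0.0419, and 0.18 with the random set block). Its day 4 values in KO cells were under those of untreated cells, whose means were 80.5 at day 4 and 65.4 at day 12. Sp110, a nuclear body protein, rose from 260.5 ± 129 to 517 ± 96.0 (1.08 ± 0.22, limma adjusted p = 0.0187, and 0.0987 with the block), with overlapping arrays. Kdm5b, a histone H3 lysine demethylase, fell (-0.63 ± 0.14, limma adjusted p = 0.0262, and 0.0671 with the block). AF067061, a marker of the 2-cell-like state, was already at 4151 in KO cells at day 4 and read 7592 at day 12 (1.10 ± 0.66, limma adjusted p = 0.467), against 29.3 and 17.8 in untreated cells. Snai1 did not pass either (1.21 ± 0.33).

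The class I major histocompatibility genes H2-D1 and H2-K1 rose in KO cells. H2-D1 read 279, 171, 268 and 231 at day 4 and 888, 958, 838 and 911 at day 12 (1.94 ± 0.22, limma adjusted p = 6.9e-04). H2-K1 read 399, 389, 431 and 365 and then 817, 697, 887 and 796 (1.01 ± 0.11, limma adjusted p = 6.2e-04). The days did not overlap for either gene, and both kept their call with the random set block. Untreated cells went from 295 to 515 for H2-D1 (0.79 ± 0.22, limma adjusted p = 0.118) and from 485 to 612 for H2-K1 (0.34 ± 0.11, 0.193). The differences of 1.15 ± 0.31 and 0.67 ± 0.16 did not pass (limma adjusted p = 0.884 and 0.816). The interferon and antigen presentation list, H2-D1 and H2-K1 included, had 4 of 45 higher (8.89%, against 2.24% of all entries) and 1 lower (2.22%, against 1.03%). Its median was -0.12 (-0.13 to -0.03 leaving out single KO arrays, 0.01 within replicate 1 and -0.07 within replicate 2). Cxcl10, a chemokine, rose (1.99 ± 0.44, limma adjusted p = 0.0287, and 0.123 with the random set block) with Sp110, and Zbp1, a sensor of nucleic acid, fell (-0.89 ± 0.20, 0.0287 and 0.131). Oasl2 (-0.96) and Gbp2 (-0.82), both induced by interferon, did not pass.

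**Figure D5:**
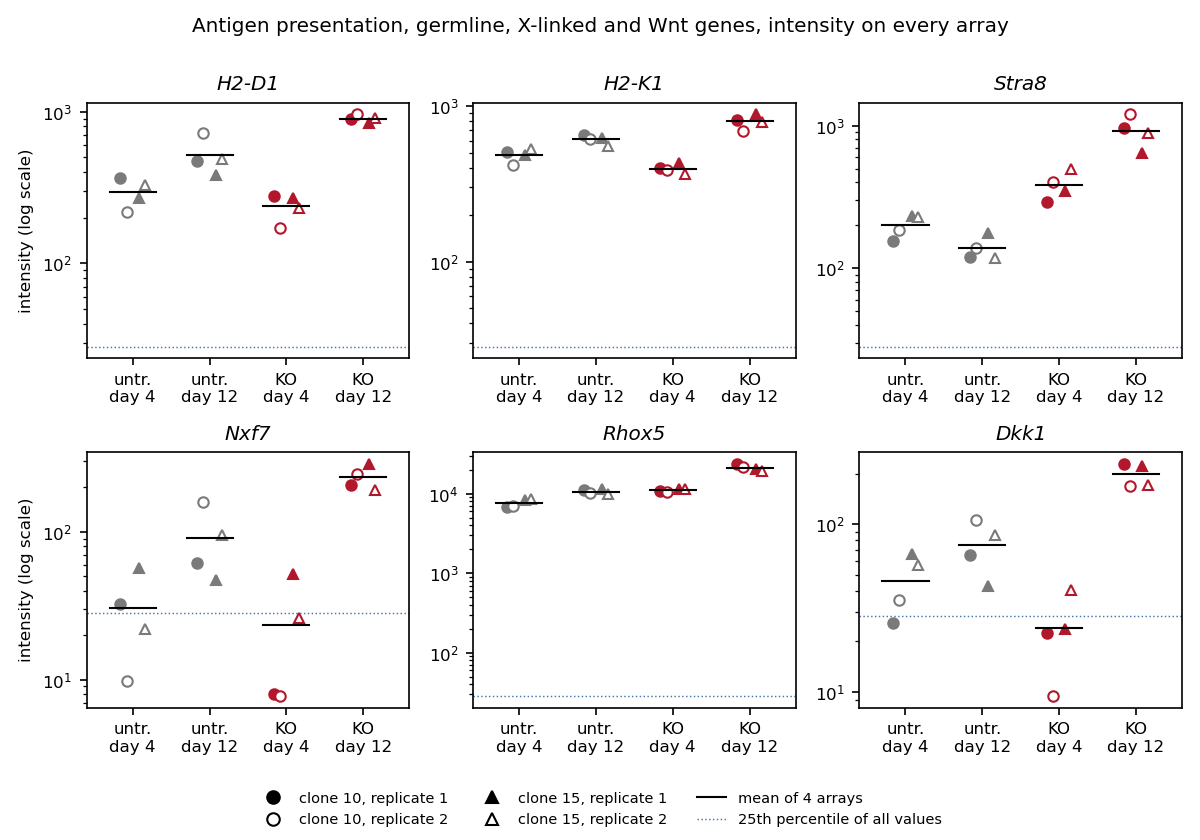
Intensity (log scale) of 6 genes outside the endoderm on every array of the 4 groups, with symbols for clone and replicate number, black bars for the mean of 4 arrays and a dotted line at the 25th percentile of all values. Stra8 is lower at day 12 in untreated cells and higher in KO cells, and Rhox5 reads at least 19432 on the KO arrays of day 12 and at most 11547 on those of day 4.

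Among the Polycomb subunits, 2 of 38 PRC1 genes rose (5.26%, against 2.24% of all entries) and 0 fell. They were Bmi1, a subunit of canonical PRC1 (278 ± 60.3 to 422 ± 49.3, SD, n = 4; 0.62 ± 0.14, limma adjusted p = 0.0268), and Pcgf5, a subunit of variant PRC1 (1787 ± 189 to 2546 ± 282; 0.51 ± 0.12, 0.0374). Both lost their call with the random set block (0.0838 and 0.144). Yaf2, the paralogue that takes the place of Rybp in PRC1, did not pass (481 ± 25.8 and 575 ± 66.6; 0.25 ± 0.16), and neither did Auts2 (-1.12) or Kdm2b (-0.73). Of 13 PRC2 genes 0 rose and 1 fell (7.69%, against 1.03%). Jarid2, which guides PRC2 to its targets, fell from 9141, 7813, 8375 and 7789 to 5879, 5957, 5293 and 4987 (-0.58 ± 0.14, limma adjusted p = 0.0378, and 0.0905 with the block). The catalytic subunit Ezh2 (-0.21 ± 0.11), Epop (0.46 ± 0.48) and Rbbp4 (-0.34 ± 0.11) did not pass.

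In the list of Polycomb-target transcription factors, 5 of the 7 that rose belong to the endoderm list. Whether Polycomb held any of these genes silent in these cells was not measured. Of 109 measured 7 rose (6.42%, against 2.24% of all entries) and 2 fell (1.83%, against 1.03%). The median was 0.19 (0.07 to 0.25 leaving out single KO arrays, 0.02 within replicate 1, 0.19 within replicate 2, and 0.07 with the floor). The 7 were Gata6, Gata4, Sox17, Sox7 and Foxa2, with Msx2, a homeobox gene (91.9, 73.5, 82.6 and 38.7 to 216, 202, 230.0 and 221; 1.67 ± 0.25, limma adjusted p = 0.00317), and Bmi1, which the list holds besides PRC1. Olig1, of the oligodendrocyte lineage, and Pou4f1, of sensory neurons, fell, with changes of -0.78 ± 0.15 and -0.79 ± 0.18 (limma adjusted p = 0.0143 and 0.0367; 0.0829 and 0.0984 with the random set block). Neurod1 read 3089, 1184, 2491 and 921 at day 4 and 677, 414, 864 and 439 at day 12 and did not pass (-1.58 ± 0.45, limma adjusted p = 0.0807), nor did Tbx4 (-1.22). Of 33 Hox genes 0 were called by limma. Of the 33, 2 were above the median intensity of all probe sets, and their median change of 0.55 became 0.00 with the floor (0.16 within replicate 1 and 0.57 within replicate 2 without it). Hoxa11 (1.27 ± 0.40) and Hoxc9 (1.49 ± 0.64) had the largest changes.

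Genes of other lineages are given beside the 2.24% higher and 1.03% lower of all entries. In the trophectoderm list 4 of 32 rose (12.5%), namely Krt8, Krt18, Rhox6 and Plac1, a placental gene that went from 33.1, 43.6, 34.7 and 49.2 to 224, 161, 181 and 154 (2.17 ± 0.35, limma adjusted p = 0.00554), and Tfap2c fell (3.12%). The defining markers Cdx2, Elf5, Eomes, Hand1 and Krt7 did not pass, nor did Itga7 (1.08). In mesoderm and primitive streak 2 of 49 rose (4.08%) and 1 fell (2.04%). The increases were Gata4 and Pdgfra, which the list shares with the endoderm, and Bmp4 fell (-0.63 ± 0.15, limma adjusted p = 0.0419, and 0.132 with the random set block). Flt1 did not pass (0.70). In ectoderm and neural genes 2 of 47 rose (4.26%) and 4 fell (8.51%), the latter Otx2, Gbx2, Olig1 and Ncam1, a neural adhesion molecule (194, 227, 182 and 224 to 82.1, 134, 92.6 and 99.7; -1.04 ± 0.20, limma adjusted p = 0.0147). Nefm, a neurofilament chain, rose from 41.8 ± 16.4 to 93.1 ± 10.1 (1.23 ± 0.28, limma adjusted p = 0.0343) and Krt5, a keratin of basal epithelia, from 67.8 ± 11.9 to 130.2 ± 11.4 (0.95 ± 0.22, 0.0372), and neither kept its call with the block (0.162 and 0.203). Nrcam did not pass (-0.78), and the neural markers Sox1, Pax6, Tubb3 and Map2 did not either. Prrx1, of the feeder list, read 54.8 and 94.9 and did not pass.

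Signalling lists had between 0 and 2 members called in each direction. Counts in these lists stand beside 2.24% higher and 1.03% lower of all entries. Dkk1, a secreted Wnt inhibitor, read 22.5, 9.44, 23.8 and 40.8 at day 4 and 229, 169.5, 222 and 172 at day 12 (3.20 ± 0.40, limma adjusted p = 0.00111; floored fold 6.32), against 46.1 and 74.9 in untreated cells (0.72 ± 0.40). Its difference of 2.48 ± 0.57 did not pass (limma adjusted p = 0.816). Wnt11, a non-canonical ligand, rose (1.20 ± 0.26, limma adjusted p = 0.0239, and 0.107 with the random set block), while Lgr4, a receptor for R-spondins, fell with Wnt5a (-0.64 ± 0.12, 0.0126 and 0.0589). In all 2 of 54 Wnt genes rose and 2 fell (3.7% each way), and Wnt2b did not pass (1.23). Igf2, an imprinted growth factor, read 325, 249.6, 285 and 236 and then 1208, 1437, 1793 and 1223 (2.36 ± 0.21, limma adjusted p = 8.2e-05), and in untreated cells 248 and 613 (1.31 ± 0.21, 0.0107). It was the 1 call among 46 imprinted genes, where Snrpn (-1.69) and Airn (0.86) did not pass. Htra1, a protease that cleaves IGF-binding proteins, rose by 1.39 ± 0.18 (limma adjusted p = 0.00156), which made 2 of 26 in the IGF list, and Igfbp6 (0.74) and Irs2 (-0.70) did not pass. The FGF-ERK feedback genes Il17rd, a brake on FGF receptors, and Cnpy1, a regulator of FGF signalling, fell from 638 ± 58.0 to 398 ± 80.7 (-0.70 ± 0.10, limma adjusted p = 0.00191) and from 671 ± 116 to 371 ± 80.4 (-0.87 ± 0.17, 0.0167), 2 of 35 (5.71%) with 0 higher. Egr1, an early target of that pathway, read 6616, 434, 7242 and 264 at day 4 and 556, 351, 438 and 335 at day 12, high on the replicate 1 arrays of day 4 alone, and Fos read 1068, 318, 1461 and 254 and 413, 278, 291 and 217. Neither passed (-1.90 ± 1.20 and -1.03 ± 0.56). In the TGF-beta list Smad2, a signal transducer of Nodal, rose (0.50 ± 0.11), Skil, a repressor of that signal, fell (-0.60 ± 0.13) with Bmp4, and Bmp2 did not pass (2.11); Skil kept its call with the random set block (0.0388) and Smad2 did not (0.113).

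Among metabolic genes, Pdk1, the kinase that limits pyruvate entry into mitochondria, fell from 7843, 10589.6, 6999 and 10404 to 4505, 4532, 4785 and 5073 (-0.90 ± 0.15, limma adjusted p = 0.0064), and Slc2a1, the glucose transporter, from 17438 ± 2492 to 11721 ± 1427 (-0.57 ± 0.14, 0.0497, and 0.104 with the random set block). Both are among 38 glycolysis and hypoxia genes (5.26% called each way), of which P4ha1 and P4ha2 rose, Egln3 (-0.91) and Ndrg1 (-0.67) did not pass, and the median was -0.06 (-0.11 to 0.04 leaving out single KO arrays). Of 42 oxidative phosphorylation genes 0 were called by limma, Sdhd (0.50, limma adjusted p = 0.0553) and Ogdh (0.38) having the largest floored changes. In cholesterol synthesis Mvk rose (0.53 ± 0.13, limma adjusted p = 0.039, and 0.133 with the block), 1 of 21, while Fdps (0.64) and Mvd (0.56) did not pass. Asns, Sars and Slc3a2, targets of the amino acid response factor ATF4, rose by 0.57 ± 0.09, 0.49 ± 0.10 and 0.45 ± 0.09 (limma adjusted p = 0.00387, 0.016 and 0.0158), 3 of 40, with Atf3 (1.97) and Wars (0.57) not passing. Chaperones gave 3 of 35, Serpinh1, Cryab (1.35 ± 0.33) and Manf (0.61 ± 0.15), while Hspa4 (-0.43) and Dnajb9 (-0.50) did not pass. With the random set block 1 of the 35 chaperones and 2 of the 40 ATF4 genes were called. Without it 8.57% of the chaperones and 7.5% of the ATF4 genes were higher. Shares over all entries, for these and the metabolic lists, were 2.24% higher and 1.03% lower.

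Cell cycle genes gave 2 increases (4.35%) and 1 decrease (2.17%) of 46, beside 2.24% higher and 1.03% lower of all entries. Ccnd2, a D-type cyclin, rose from 448, 486, 421 and 382 to 981, 790.5, 1000.1 and 1037 (1.13 ± 0.15, limma adjusted p = 0.0017), and also in untreated cells (1.02 ± 0.15). Cdk2 rose and Cdt1, a replication licensing factor, fell, with changes of 0.50 ± 0.11 and -0.48 ± 0.10 (limma adjusted p = 0.0239 and 0.0196; 0.0716 and 0.0735 with the random set block), and E2f2 (-0.63) and Ccnd3 (0.60) did not pass. A second bright probe set of Cdt1, with a mean intensity of 4279, read a change of 0.19 (limma adjusted p = 0.788 over every probe set). Mbd2, a reader of methylated DNA, rose from 255, 249, 339 and 232 to 505, 415, 554 and 465 (0.86 ± 0.13, limma adjusted p = 0.0046), the 1 call among 35 genes of DNA methylation and retroviral silencing, where Mbd3 did not pass (-0.54). Dnmt3a, given above with its dimmer probe sets, belongs to that list too. Ncl, nucleolin, fell (-0.40 ± 0.09, limma adjusted p = 0.0322, and 0.107 with the block), the 1 call among 30 ribosomal and translation genes, with Eif4e (0.32) and Nop56 (-0.28) not passing. By limma 0 genes passed among 37 p53 targets (Tnfrsf10b 0.61, and Cdkn2a, whose mean went from 71.3 to 39.9), 27 apoptosis regulators (Bcl2l11 -0.71, Bcl2 -1.26), 14 genes of X inactivation (Xist -0.61, Jpx 0.42) and 24 housekeeping genes (Reep5 1.27, Polr2a -0.68), where these members had the largest changes with the floor.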

How the data were processed

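Total RNA of 16 samples was hybridised to Affymetrix mouse 430 arrays. The deposited table holds 45101 probe sets with 1 linear intensity each per array, and RMA and the Affymetrix Expression Console stand in the submitters' processing notes, without versions. The sorted values are identical in all arrays, so the authors' intensities were quantile-normalized. The series' design text names the smaller 430A 2.0 array, which holds fewer probe sets than the table. Log2 was taken with no offset, and the platform annotation named 34945 probe sets by a single symbol. The brightest probe set stood for each of 18193 genes, with 2 Rybp entries kept apart (18195 tested). Both days of KO and untreated cells (16 arrays) entered one limma fit (3.58.1, R 4.3.3) with group and clone, eBayes and Benjamini-Hochberg adjustment, called at 0.05. The samples limit precision to 4 arrays a group, and dim genes vary most (the median within-group SD of a clone's arrays was 1.19 on the log2 scale under a mean of 5, and 0.19 over 11). On simulated data the median estimates were close to the changes put in, and larger changes were called more often than smaller ones. Named were Rybp, the 12 largest floored increases and 12 decreases with the same sign in 4 of 4 pairs, and, per list, up to 4 called and 2 other members by floored change. Other genes were named after their values were seen, and the members and lists were chosen with earlier results of these data known. Same-numbered arrays of day 4 and day 12 did not deviate together (correlations -0.08, -0.09, 0.11 and 0.19), so numbers pair no days. KO and untreated arrays of the same day, clone and number did (0.58 to 0.68 at day 4, 0.29 to 0.46 at day 12, deviations that include the clone), which comes from the data, not the labels. Alternatives were the samples in the fit, blocks, single clones or replicate numbers, the floor, a filter, every probe set, the variance model and leaving out arrays. Random sets used duplicateCorrelation (statmod 1.5.0; consensus correlation 0.354) and were added after seeing the data, as were the blocks of 8 pairs.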

Additional observations from a re-analysis of the deposited data

Results flagged for a closer look

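Among 372 groups of 4 KO arrays of the named genes, 16 had 1 array whose gap to its nearest neighbour was an unusually large share of the group's range by Dixon's test, and chance alone gives about 1 in 20 groups. Clone 10 replicate 2 at day 12 was the lowest array for Nexmif (share 0.868; 41.9 against 65.8 to 70.4), Cdk2 (0.875), Tdrd7 (0.953; 138 against 227 to 233) and Wnt11 (0.882), and the highest for Ina (0.833; 364 against 274 to 288). At day 12 clone 10 replicate 1 was the highest for Bcl2l11 (0.856) and the lowest for Sohlh2 (0.907), and clone 15 replicate 2 was the lowest for Rhox6 (0.838; 1825 against 2352 to 2470.2) and Tbx4 (0.878). At day 4 clone 15 replicate 2 was the highest for Afp (0.861; 13.9 against 6.68 to 7.40, all below the floor) and the lowest for Apom (0.924; 11.04 against 77.1 to 90.5) and Mvk (0.865). In the same group clone 10 replicate 2 was the highest for Ncl (0.838) and the lowest for Hs3st1 (0.850), clone 15 replicate 1 the lowest for Hoxa11 (0.901) and clone 10 replicate 1 the lowest for Rhox9 (0.898).

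Of 10090 probe sets with several gene symbols or none, tested apart, 5 rose and 3 fell in KO cells from day 4 to day 12, and 0 were called in untreated cells by limma. A set shared by Sprr2a2 and Sprr2a1 went from 34.0 to 419 (4.06, limma adjusted p = 0.0115), and a set shared by several genes of the Ugt1a cluster from 50.6 to 605 (3.597, 0.0109).

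For 5 of the genes examined singly, the KO and the untreated change had opposite signs in 4 of 4 pairs each. No count over all entries is given, and the replicate numbers behind these pairs pair no days. The difference of the changes, KO minus untreated on the log2 scale, was 1.67 for Nefm, 1.80 for Stra8, -3.67 for 2010320O07Rik, 4.32 for Gm11767 and 1.72 for Gm7969. None of these differences passed (limma adjusted p = 0.816, 0.816, 0.884, 0.816 and 0.816).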

How the results depend on the processing

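Counts of called genes depended on the spread assumed, while no called gene turned its direction under the alternatives run. Higher and lower counts in KO cells were 79 and 17 with the 8 arrays of the contrast alone, 696 and 398 with low values raised to the floor, 638 and 396 over genes above the median intensity, 552 and 326 with the replicate block, 568 and 322 with an intensity trend and robust eBayes, 481 and 214 over every named probe set, and 188 and 54 with the random set block. In untreated cells these settings gave 20 and 1, 285 and 205, 273 and 198, 213 and 133, 227 and 125, 149 and 58, and 48 and 8. Separate fits within replicate 1 or replicate 2 gave 0 and 0 in KO and 0 and 0 in untreated cells (in the fit of all arrays, the KO change was called for 904 and 867 genes within replicate 1 and 939 and 600 within replicate 2, with 284 of the 595 called in both), clone 10 gave 1 and 0 in KO and 0 and 0 in untreated cells, and clone 15 gave 0 and 0 in both. Leaving out 1 array gave 175 to 310 higher and 64 to 112 lower in KO, 66 to 97 higher and 19 to 46 lower in untreated cells, and 0 to 0 for the difference. The higher count moved by over 1.5 times without clone 10 replicate 1 (208), clone 15 replicate 1 (175) or clone 15 replicate 2 (248) of day 12, and without clone 10 replicate 2 (244) or clone 15 replicate 2 (236) of day 4. The lower count did so without any 1 of the 8 arrays.

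The replicate block kept 579 of the 595 calls. The replicate block of 8 pairs of a KO and an untreated array called 1 gene for the difference (1702 at an unadjusted p under 0.05), Tmlhe (2.37 ± 0.54 without the block), with an adjusted p of 0.034 against 0.816 without it; with the random set block it was 0 genes (lowest adjusted p = 0.180, 1455 at an unadjusted p under 0.05). The change of 8 genes that were not called turned sign: Cdkn2a within clone 10 (0.071), Epop (-0.76), Gbp2 (0.031) and Ogdh (-0.12) within replicate 1, and Egr1 (0.019), Flt1 (-0.22), Irs2 (0.66) and Polr2a (0.83) within replicate 2. The cause was not tested. Of 223 further probe sets of 110 named genes, 178 had the same sign and 0 were called with the opposite sign. Dim genes, with wide spread, limit what could be called.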

Other observations

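The remaining increases of at least 8-fold with the floor lay outside the endoderm list and were not among the leading 12. B4galnt2, which adds N-acetylgalactosamine to glycans, read 98.7, 2.48, 108 and 8.60 at day 4 and 629, 233, 966 and 394 at day 12 (4.48 ± 0.997, limma adjusted p = 0.0302). Tfec, a transcription factor related to Mitf, read 3.53, 27.03, 2.20 and 7.06 and then 305, 163, 347 and 235 (5.35 ± 0.58, limma adjusted p = 4.8e-04). In untreated cells they changed by 1.37 ± 0.997 and 4.42 ± 0.58. Hs3st1, a heparan sulfate sulfotransferase, went from 92.8, 13.8, 128 and 129.7 to 907, 427, 883 and 659 (3.34 ± 0.55, limma adjusted p = 0.00613), and its lowest day 4 array was far below the others. Pla2g12b, a phospholipase-like secreted protein, went from 108, 46.1, 96.0 and 77.9 to 889.9, 394, 951 and 568 (3.08 ± 0.34, limma adjusted p = 6.2e-04). The arrays of both days were apart for each gene.

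Of the 595 called genes, 97 belonged to some list and 498 to none. Across the 10850 genes above the median intensity, the KO and untreated changes had a Pearson correlation of 0.70 across genes, and 0.29 across all genes. These are descriptions, since genes are not independent and the KO and untreated arrays carry the same replicate numbers.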
